A study of Mus musculus with 10 samples.

Results

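Adenylyl cyclases make cyclic AMP from ATP, and the 9 genes that encode the membrane-bound isoforms, Adcy1 to Adcy9, were examined in RNA from ribosomes of dopamine D2 receptor cells of the mouse striatum. The members are the genes with these symbols, and all 9 were among the 32531 gene symbols counted in the 10 libraries. The mice were adults of the Drd2-EGFP/Rpl10a line CP101, in which the D2 receptor gene's regulatory region drives an EGFP-tagged ribosomal protein L10a, so that tagged ribosomes come from D2 receptor cells. In the whole striatum these are mainly indirect-pathway medium spiny neurons (MSNs), although cholinergic interneurons also use Drd2. Animals of every group carried this transgene. They self-administered saline or cocaine intravenously in short sessions, and tagged polysomes were immunopurified (IP). There were 3 saline IP libraries (numbers 1, 2 and 4), 5 cocaine IP libraries (numbers 1 to 5), 1 input library of total RNA after saline and 1 library of unbound RNA after cocaine. The labels give no ages, and do not say whether animals were pooled or whether libraries came from separate animals. The p-values below therefore measure only the spread between these libraries.

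In MSNs the stimulatory G protein of the D1 receptor and of the adenosine receptor encoded by Adora2a raises cyclase activity, and the inhibitory G proteins of the D2 receptor lower it. Isoforms differ in what else controls them. Types 1, 3 and 8 are stimulated by calcium and calmodulin, types 5 and 6 are inhibited by calcium and by inhibitory G alpha subunits, and types 2, 4 and 7 are stimulated by G beta gamma subunits when the stimulatory alpha subunit is also active. Type 9 stands apart in being nearly insensitive to forskolin, a plant compound that activates the other membrane isoforms. Type 5 is known as the main striatal isoform.

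Gene reads per library ran from 18408782 in the input to 31631137 in cocaine IP 3. The pull-down matched its label. Levels are in CPM, the gene's reads per unit of scaled library size. Drd2 stood at 2217.7 to 2695 CPM in saline IP and 358 CPM in input RNA. All 10 indirect-pathway markers exceeded the reference of their own treatment by 2-fold or more throughout. Drd1, the receptor gene of direct-pathway MSNs, stood at 32.4 to 43.6 CPM in saline IP, and input RNA held 387 CPM. Both libraries numbered 1 stood apart. Summed indirect-pathway markers came to 8682 CPM in saline IP 1 and 7534 CPM in cocaine IP 1, against 10429 to 13653 CPM in the other IP libraries. Summed oligodendrocyte markers came to 525 and 496 CPM in them, against 229 to 387 CPM in the others. Summed astrocyte markers came to 484 and 398 CPM in them, against 437 to 560 CPM in the others. The input and unbound libraries were sequenced on lane 1 and the IP libraries on lanes 4, 6 and 7, and the references held 25.5% and 27.4% of reads outside genes against 12.9% to 14.4% in the IP. Lane and fraction therefore cannot be told apart in any IP ratio.

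The summed RNA of the 9 isoforms was dominated by Adcy5, Adcy9 and Adcy1. Levels of different genes were compared as CPM per kilobase of merged exon, since a longer transcript yields more reads. Adcy5 had 49.9 ± 9.37 CPM per kilobase (SD, n = 3) in saline IP and 49.5 ± 13.2 (SD, n = 5) in cocaine IP. Adcy9 followed with 17.3 ± 4.93 (SD, n = 3) and 18.8 ± 5.20 (SD, n = 5), and Adcy1 with 9.77 ± 2.38 (SD, n = 3) and 10.8 ± 2.12 (SD, n = 5). Together the 3 genes made up 95.8% to 96.7% of the summed level per kilobase in saline IP and 94.0% to 97.1% in cocaine IP, against 90.3% in the input and 89.8% in unbound RNA. Ranges of Adcy5 and Adcy9 did not overlap in either IP group. Those of Adcy9 and Adcy1 did not overlap in saline IP but did in cocaine IP, although Adcy9 was the higher in all 5 of those libraries.

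The order of Adcy9 and Adcy1 rests on the length used. The merged exons of Adcy1 span 12522 bases, of which 3354 are coding, and those of Adcy9 span 5197 bases with 4059 coding. The same reads, not limited to coding sequence, were also divided by coding length. Adcy1 then came second, with 23.0% of the sum in saline IP against 13.8% for Adcy9. That measure raises genes with much noncoding exon, such as Adcy1. Adcy5 was first with each of 3 length measures. Below these 3, Adcy3 had 1.55 ± 0.47 CPM per kilobase (SD, n = 3) in saline IP and Adcy2 had 1.06 ± 0.27 (SD, n = 3), and their ranges overlapped. Adcy6 came next at 0.27 ± 0.076 (SD, n = 3), without overlap with Adcy2. Adcy8, Adcy7 and Adcy4 were last, with overlapping ranges. The same order by mean level held in cocaine IP.

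**Figure D1:**
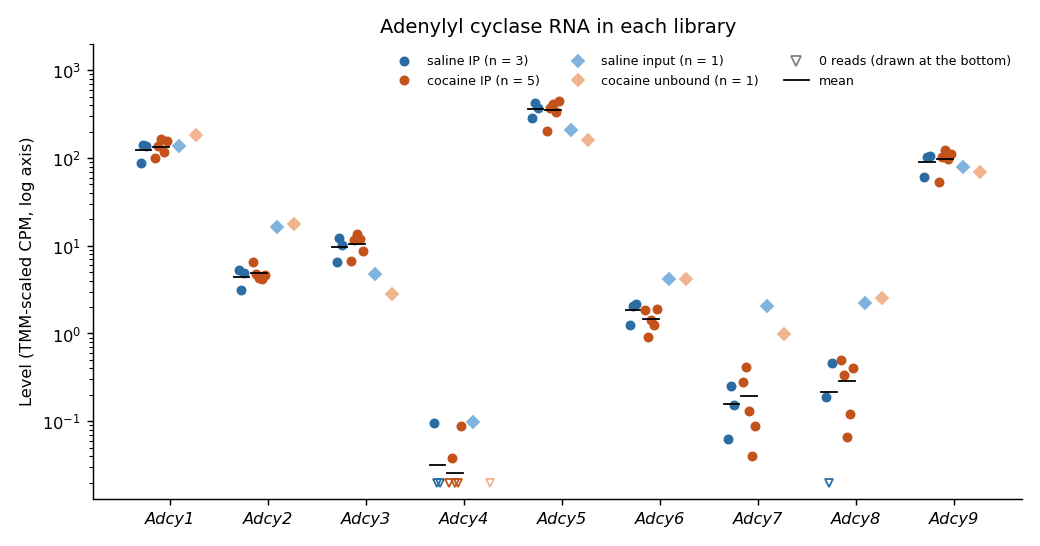
Level of each isoform in each library, as TMM-scaled CPM on a log axis (not divided by length); circles are IP libraries, diamonds the single input and unbound libraries, bars the IP group means and open triangles libraries with 0 reads. Adcy5, Adcy1 and Adcy9 lie near or above 100 CPM in most libraries, while Adcy4, Adcy7 and Adcy8 stay below 1 CPM in every IP library.

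The start regions of the 3 leading genes and of Adcy2, which had the lowest mean IP ratio of the 6 isoforms compared, are shown to place these genes in the genome (RefSeq, GRCm38.p6, 250 bases before the annotated start, 5′ to 3′). Capitals mark the GC box, GGGCGG or CCGCCC on the other strand.
Adcy5, chr16:35154614-35154863 (plus strand): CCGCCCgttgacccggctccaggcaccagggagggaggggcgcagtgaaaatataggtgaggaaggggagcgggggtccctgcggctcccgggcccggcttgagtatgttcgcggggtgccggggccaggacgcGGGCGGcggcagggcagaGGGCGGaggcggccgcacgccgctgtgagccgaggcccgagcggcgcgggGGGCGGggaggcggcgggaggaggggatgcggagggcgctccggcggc
Adcy9, chr16:4420499-4420748 (minus strand): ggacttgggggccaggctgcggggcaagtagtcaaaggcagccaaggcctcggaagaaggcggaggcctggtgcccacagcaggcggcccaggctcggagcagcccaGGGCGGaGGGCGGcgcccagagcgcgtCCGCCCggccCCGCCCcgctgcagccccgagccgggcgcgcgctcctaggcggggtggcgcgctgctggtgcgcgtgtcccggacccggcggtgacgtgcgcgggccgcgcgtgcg
Adcy1, chr11:7063183-7063432 (plus strand): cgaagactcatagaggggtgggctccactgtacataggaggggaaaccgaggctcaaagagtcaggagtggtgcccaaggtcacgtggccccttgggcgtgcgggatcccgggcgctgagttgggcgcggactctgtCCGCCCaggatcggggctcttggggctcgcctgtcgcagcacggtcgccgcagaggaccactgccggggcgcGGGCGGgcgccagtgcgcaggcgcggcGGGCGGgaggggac
Adcy2, chr13:68999542-68999791 (minus strand): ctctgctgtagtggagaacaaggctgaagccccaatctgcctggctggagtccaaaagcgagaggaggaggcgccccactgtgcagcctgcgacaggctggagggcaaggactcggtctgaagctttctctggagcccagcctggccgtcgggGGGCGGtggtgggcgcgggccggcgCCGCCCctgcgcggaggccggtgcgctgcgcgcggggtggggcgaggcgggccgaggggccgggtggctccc
Their GC content was 78.0% for Adcy5, 78.8% for Adcy9, 71.2% for Adcy1 and 73.2% for Adcy2, against a median of 52.4% over 32851 promoters. Adcy5 and Adcy9 each held 4 GC boxes, Adcy1 3 and Adcy2 2, and 32.7% of all promoters held at least 1 on either strand. The TATA motif TATAAA (12.4% of all promoters) and the full cyclic AMP response element TGACGTCA (1.55%) were in none of the 4. The shorter TGACG, which also lies within the full element, was in Adcy9 alone (17.8% of all promoters). The motifs did not separate Adcy2 from the other 3 genes, and these matches describe letters, not sites in use.

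Adcy5 (chromosome 16, 35154877 to 35305738, plus strand) was higher in the IP than in the reference in all 8 libraries. It stood at 286, 419.9 and 368 CPM in saline IP 1, 2 and 4, and at 208 CPM in the input (95% Poisson interval 201 to 214, counting error only). It stood at 205, 375, 415, 334 and 450.3 CPM in cocaine IP 1 to 5, and at 161 CPM in unbound RNA (156 to 167). Every IP library therefore lay above the reference of its own treatment, with cocaine IP 1 the closest to it. The mean log2 ratio, taken on CPM + 1, was 0.77 ± 0.28 (SD, n = 3) to input and 1.09 ± 0.45 (SD, n = 5) to unbound RNA. Of all genes compared, 9.99% had a higher mean ratio to input and 6.73% to unbound RNA. The 11 markers of all MSNs had median log2 ratios of 0.99 to input and 1.15 to unbound RNA. Those of the 10 indirect-pathway markers were 2.31 and 2.39. Adcy5 thus lay near the markers of MSNs in general and below those of the indirect pathway. Adcy5 did not reach 2-fold in every library in either comparison. Without cocaine IP 1 all 4 remaining cocaine libraries passed 2-fold, with a mean of 1.27. Input and unbound RNA have 1 library each, so these ratios carry no p-value. In such bulk RNA a difference in the number of cells of a type and one in RNA per cell cannot be told apart.

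Adcy6 (chromosome 15, 98589973 to 98610076, minus strand), which encodes the closest relative of type 5, went the other way. It had 1.24, 2.08 and 2.18 CPM in saline IP 1, 2 and 4 and 4.16 CPM in the input. It had 1.84, 0.91, 1.42, 1.25 and 1.92 CPM in cocaine IP 1 to 5 and 4.14 CPM in unbound RNA. All 8 IP libraries were lower than their reference, with mean log2 ratios of -0.88 ± 0.28 (SD, n = 3) and -1.08 ± 0.25 (SD, n = 5), without 2-fold in every library. The size depended on the prior: it was -1.18 and -1.48 with 0.1 CPM, then at least 2-fold lower in every cocaine IP library, and -0.43 and -0.50 with 5 CPM. Counts were small, at 24 to 59 reads per IP library. As a share of the family per kilobase, the calcium-inhibited pair of Adcy5 and Adcy6 made up 63.1% ± 2.85 (SD, n = 3) of saline IP and 48.4% of the input. It made up 60.2% ± 2.07 (SD, n = 5) of cocaine IP and 41.1% of unbound RNA. Nearly all of this was Adcy5, since Adcy6 gave 0.33% ± 0.037 (SD, n = 3) in saline IP and 1.01% in the input.

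**Figure D2:**
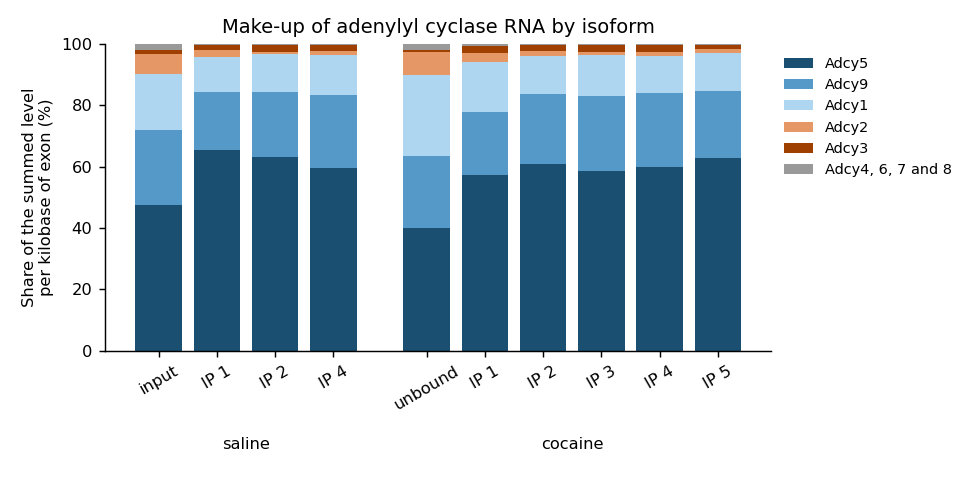
Make-up of adenylyl cyclase RNA in each library, as the share of each isoform in the summed CPM per kilobase of merged exon (%). Adcy5 takes 59.6% to 65.3% of the saline IP libraries and 47.4% of the input, and 57.3% to 63.0% of the cocaine IP libraries and 40.0% of unbound RNA.

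The 3 calcium and calmodulin-stimulated isoforms were split. Adcy1 (chromosome 11, 7063489 to 7178506, plus strand), an isoform known from cortex and hippocampus, had 88.1, 142 and 138 CPM in saline IP 1, 2 and 4 and 139 CPM in the input (95% Poisson interval 134 to 144). The saline libraries thus lay on both sides of the input, with a mean log2 ratio of -0.21 ± 0.38 (SD, n = 3). In cocaine IP 1 to 5 it had 101, 136, 165, 117 and 156 CPM, all below the 185 CPM of unbound RNA (179 to 190.5), with a mean log2 ratio of -0.47 ± 0.29 (SD, n = 5). The balance between Adcy5 and Adcy1 differed between IP and reference. Per kilobase Adcy5 exceeded Adcy1 by 4.67 to 5.67-fold in saline IP and 2.60-fold in the input. The excess was 3.54 to 5.04-fold in cocaine IP and 1.52-fold in unbound RNA.

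Adcy3 (chromosome 12, 4133103 to 4213525, plus strand), best known as the cyclase of olfactory neurons and of neuronal primary cilia, had the highest mean IP ratios of the 6 isoforms compared. It had 6.53, 12.3 and 10.3 CPM in saline IP 1, 2 and 4 and 4.74 CPM in the input (95% Poisson interval 3.85 to 5.78). It had 6.74, 11.6, 13.8, 11.9 and 8.74 CPM in cocaine IP 1 to 5 and 2.85 CPM in unbound RNA (2.20 to 3.62). All 8 IP libraries lay above their reference, with those numbered 1 the lowest in both groups. The mean log2 ratio was 0.86 ± 0.42 (SD, n = 3) to input and 1.55 ± 0.37 (SD, n = 5) to unbound RNA. Adcy3 was at least 2-fold higher in every cocaine IP library, with cocaine IP 1 just past the limit at 1.01. The call ended with library size alone as the scaling (mean 1.40) and with a prior of 5 CPM (0.97). With that prior the mean ratios of Adcy5, 0.76 and 1.07, exceeded those of Adcy3, 0.57 and 0.97, and Adcy5 was the higher of both in saline IP 1 and cocaine IP 5 with the prior of 1 CPM as well. Of the merged exon bases of Adcy3, 22.1% overlap Cenpo, a centromere protein gene on the other strand. If counting ignored strand, reads there could not be assigned to either gene. Reads that could not be assigned to 1 gene were 7.33% in the input, 7.34% in unbound RNA and 3.42% to 3.95% in the IP libraries. These are shares of gene, no-feature and ambiguous reads. Their part in the Adcy3 ratios was not tested. Mean levels of Cenpo itself were below the references, at 1.87 ± 0.49 CPM (SD, n = 3) in saline IP, 2.90 CPM in input RNA, 1.57 ± 1.02 CPM (SD, n = 5) in cocaine IP and 2.98 CPM unbound.

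Adcy8 (chromosome 15, 64697084 to 64922296, minus strand), another calcium-stimulated isoform of forebrain neurons, was scarce in the IP. It had 6, 0 and 12 reads in saline IP 1, 2 and 4 and 46 in the input, and 16, 9, 2, 3 and 9 reads in cocaine IP 1 to 5 and 59 in unbound RNA. Its mean over each comparison was below 1 CPM, and it was left out of the ratio comparison. Summed over libraries and scaled, its level was 10.6-fold higher in the input than in saline IP (95% interval 6.02 to 19.4) and 8.88-fold higher in unbound RNA than in cocaine IP (5.83 to 13.7). These intervals, from the binomial split of the reads, cover counting error only. Each IP library was below 0.50 CPM and both references were above 2.2 CPM.

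The isoforms stimulated by G beta gamma subunits were low in the IP. Adcy2 (chromosome 13, 68620043 to 68999541, minus strand) had 5.29, 3.15 and 4.89 CPM in saline IP 1, 2 and 4 and 16.5 CPM in the input (95% Poisson interval 14.8 to 18.4). It had 6.46, 4.75, 4.33, 4.16 and 4.64 CPM in cocaine IP 1 to 5 and 17.6 CPM in unbound RNA (15.9 to 19.4). No IP library came near its reference. The mean log2 ratio was -1.71 ± 0.32 (SD, n = 3) to input and -1.68 ± 0.21 (SD, n = 5) to unbound RNA, that is 3.27 and 3.20-fold lower, and every library passed 2-fold in both comparisons. The call against unbound RNA was lost with a prior of 5 CPM, where the mean was -1.20, and the call against input was kept at the same mean. Of 10 astrocyte markers 9, and of 10 oligodendrocyte markers all, were also 2-fold lower in both comparisons, with medians of -3.54 and -4.11 against input, and none was at 0. Astrocyte markers summed to 398 to 559.7 CPM in the IP and to 2378 and 2258 CPM in the references, and oligodendrocyte markers to 229 to 525 CPM and to 5147 and 5465 CPM. Their part in the Adcy2 ratio was not tested.

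Adcy7 (chromosome 8, 88272403 to 88329962, plus strand), an isoform known from blood and immune cells, had 2, 7 and 4 reads in saline IP 1, 2 and 4 and 43 in the input. It had 9, 11, 4, 1 and 2 reads in cocaine IP 1 to 5 and 23 in unbound RNA. The scaled sum was 13.7-fold higher in the input than in saline IP (95% interval 7.24 to 27.8, counting error only) and 5.002-fold higher in unbound RNA than in cocaine IP (2.74 to 9.06). Microglia markers summed to 5.01 to 10.05 CPM in saline IP and 73.7 CPM in input RNA, and to 4.11 to 7.62 CPM in cocaine IP and 56.7 CPM in unbound RNA. At most 1 of the 10 markers was at 0 in any library. Their part in the Adcy7 counts was not tested. Adcy4 (chromosome 14, 55769057 to 55784095, minus strand), an isoform found in vessels, had at most 3 reads in any library and 0 in 6 of the 10, so no ratio is given. Its 0 reads in the unbound library allow up to 0.16 CPM (upper 95% Poisson limit). Together Adcy2, Adcy4 and Adcy7 made up 1.44% ± 0.63 (SD, n = 3) of the family per kilobase in saline IP and 6.99% in the input, and 1.61% ± 0.88 (SD, n = 5) in cocaine IP and 7.71% in unbound RNA.

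Adcy9 (chromosome 16, 4287529 to 4420498, minus strand), a widely expressed isoform, kept close to the reference. It had 60.2, 102 and 107 CPM in saline IP 1, 2 and 4 and 78.1 CPM in the input (95% Poisson interval 74.4 to 82.0). It had 53.0, 102, 124, 97.9 and 112 CPM in cocaine IP 1 to 5 and 68.6 CPM in unbound RNA (65.2 to 72.03). In both groups the library numbered 1 lay below the reference and all others above it. The mean log2 ratio was 0.15 ± 0.45 (SD, n = 3) to input and 0.45 ± 0.47 (SD, n = 5) to unbound RNA. Without the library numbered 1 it was 0.41 and 0.65. Its share of the family was 21.4% ± 2.45 (SD, n = 3) in saline IP, 24.7% in the input, 22.7% ± 1.65 (SD, n = 5) in cocaine IP and 23.5% in unbound RNA.

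Of the 9 genes, 6 had a mean of at least 1 CPM and entered the IP comparisons. Against input 0 were at least 2-fold higher in every library and 1 lower (Adcy2), where 1.45% of 12894 genes were higher and 11.8% lower. Against unbound RNA 1 was higher (Adcy3) and 1 lower (Adcy2), where 3.73% of 12655 genes were higher (472) and 9.85% lower (1247). Scaled by library size only, 247 genes were higher than unbound RNA and 1477 were lower. With no filter on the mean, 3 of 9 were lower than input (2165 of 20544 genes) and 2 of 9 lower than unbound RNA (1913 of 21142 genes). With a prior of 0.1 CPM Adcy6 joined Adcy2 as lower than unbound RNA, and with 5 CPM neither Adcy2 nor Adcy3 was called there. Of all genes too, fewer were called against unbound RNA with 5 CPM, as listed in the section on processing. Scaling by library size only also moved the median log2 ratio of all genes by over 0.1, from 0.10 to -0.095 against input and from 0.16 to -0.011 against unbound RNA. On both scalings Adcy3 and Adcy5 lay above that median and Adcy2, Adcy6 and Adcy1 below it.

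**Figure D3:**
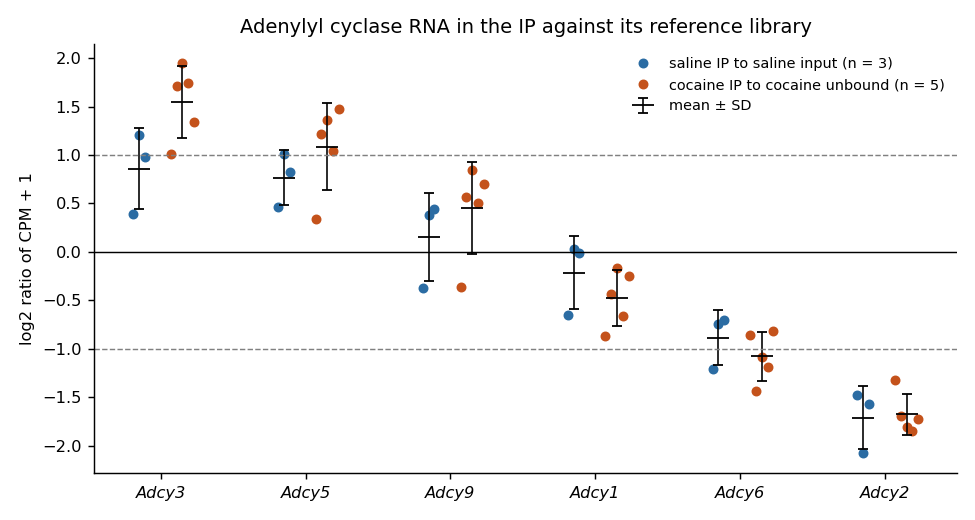
Log2 ratio of CPM + 1 of each IP library to the single reference library of its treatment, for the 6 isoforms compared; points are IP libraries, bars the mean ± SD and dashed lines 2-fold. Adcy3 and Adcy5 lie above 0 and Adcy6 and Adcy2 below 0 in all 8 libraries.

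Cocaine and saline IP libraries were compared to ask whether cyclase RNA of these cells differs after cocaine intake. None of the isoforms passed the test. With edgeR's quasi-likelihood test on the 8 IP libraries, 0 of 13800 genes passed adjusted p 0.05 (0% higher, 0% lower), with 295 at unadjusted p under 0.05. DESeq2 and limma-voom also called 0, with 443 and 429 at unadjusted p under 0.05. Each of these counts is a smaller share of the genes tested than the 0.05 that would arise with no difference at all. These fits had no block for the shared library numbers. With that block on numbers 1, 2 and 4, edgeR's test gave 903 genes at unadjusted p under 0.05, and 141 for the same 6 libraries without it. The unblocked test can therefore miss differences. The ranges of the groups overlapped for all 9 isoforms. Overlap was the usual case, since only 2.31% of the genes tested had ranges that did not overlap. Of the 9, 7 passed the low-count filter, without Adcy4 and Adcy7.

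For Adcy5 the group means were nearly equal. Its log2 difference, cocaine minus saline, was 0.00027 (SE 0.21, 95% interval -0.47 to 0.47, adjusted p = 0.9998 by edgeR's quasi-likelihood test). The interval spans levels from 1.38-fold lower to 1.38-fold higher. Within the 3 shared library numbers the difference in log2(CPM + 1) was -0.48, -0.16 and -0.14 for numbers 1, 2 and 4, lower after cocaine in each. With the number as a block, edgeR's quasi-likelihood test gave -0.26 (SE 0.088, unadjusted p = 0.010, adjusted p = 0.696). The same 6 libraries without the block gave -0.23 (SE 0.22, unadjusted p = 0.33 in that test). Cocaine IP 3 and 5, which have no saline partner, held the second highest and the highest cocaine values. Sequencing lane is tied to treatment, with lanes 6 and 7 for saline and 4 and 6 for cocaine. Saline and cocaine libraries of the same number were on different lanes, so treatment and lane cannot be told apart within those pairs. Lane 6 holds saline IP 4 and cocaine IP 1 and 2, and within it Adcy5 differed by -0.33 (SE 0.36), on 1 saline library. With lane as a covariate the difference was -0.33 (SE 0.35). This fit repeats the lane 6 contrast, since lane 4 held only cocaine and lane 7 only saline IP libraries. Both values rest on cocaine IP 1 (205 CPM), since cocaine IP 2 (375 CPM) lay near saline IP 4 (368 CPM). Without cocaine IP 1 the lane-adjusted difference was 0.021 (SE 0.31), which compares 1 library, cocaine IP 2, with 1, saline IP 4.

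Adcy9 differed by 0.14 (SE 0.25) and Adcy1 by 0.15 (SE 0.19), both with adjusted p = 0.9998 in edgeR's test. Their intervals allow up to 1.60-fold and 1.47-fold higher levels after cocaine and 1.32-fold and 1.19-fold lower ones. Their sign turned within lane 6, to -0.45 (SE 0.38) for Adcy9 and -0.20 (SE 0.25) for Adcy1. Those values too rest on cocaine IP 1, and without it the lane-adjusted differences were -0.076 (SE 0.34) and -0.019 (SE 0.34). The sign also turned without saline IP 1, to -0.093 and -0.044. Without both libraries numbered 1 the differences were 0.059 (SE 0.13) and 0.038 (SE 0.15), and that of Adcy5 was -0.0031 (SE 0.14).

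Among the scarcer isoforms, Adcy3 differed by 0.13 (SE 0.25) and Adcy2 by 0.14 (SE 0.23). Within lane 6 these were -0.16 (SE 0.39) and 0.22 (SE 0.38), and lane-adjusted without cocaine IP 1 they were 0.16 (SE 0.46) and -0.048 (SE 0.46). Adcy6 differed by -0.30 (SE 0.32), with an interval of -1.002 to 0.41, and was negative with each alternative fit, from -1.27 to -0.16. Adcy8 differed by 0.43 (SE 0.86), and its interval of -1.45 to 2.31 leaves a large change in either direction undetectable at 0 to 16 reads. Adcy7 had 0.19 ± 0.15 CPM (SD, n = 5) after cocaine and 0.16 ± 0.094 CPM (SD, n = 3) after saline. The make-up was close too: Adcy5 took 59.9% ± 2.15 (SD, n = 5) of the family per kilobase after cocaine and 62.7% ± 2.89 (SD, n = 3) after saline, with overlapping ranges.

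**Figure D4:**
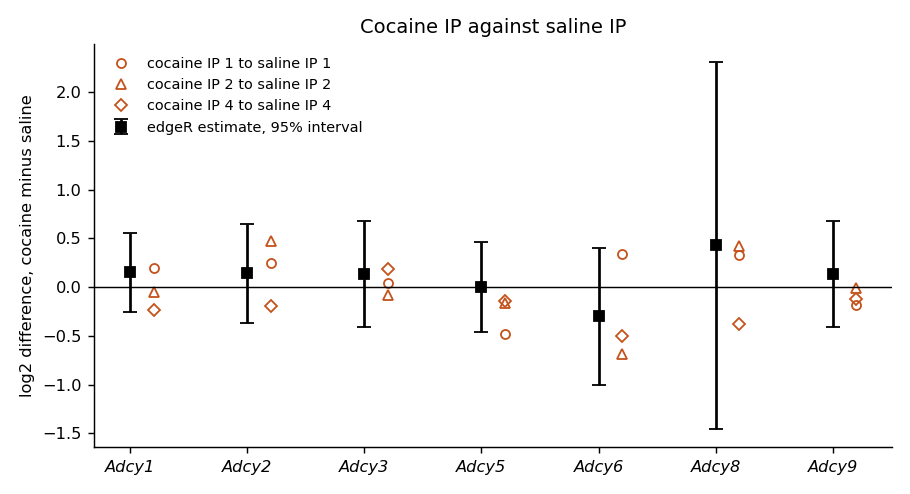
Log2 difference between cocaine and saline IP for the 7 isoforms tested: squares are edgeR estimates over all 8 IP libraries with 95% intervals, and open symbols the differences within the shared library numbers 1, 2 and 4. Every interval spans 0, and for Adcy5 all 3 open symbols lie below 0.

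The other genes of the cyclic AMP pathway were described from 7 lists of 112 genes. Their counts are to be read beside the shares of all genes, 1.45% higher and 11.8% lower against input and 3.73% higher and 9.85% lower against unbound RNA. Of 22 receptor genes that raise or lower cyclase activity, 18 were compared, and 6 were at least 2-fold higher and 2 lower in every saline IP library than in the input. They were led by Drd2 with a log2 ratio of 2.76 ± 0.14 (SD, n = 3), Adora2a with 2.84 ± 0.36 (SD, n = 3) and the constitutively active receptor gene Gpr6 with 2.42 ± 0.45 (SD, n = 3). Drd1 and the muscarinic receptor gene Chrm4 were lower, at -3.29 ± 0.22 (SD, n = 3) and -2.51 ± 0.32 (SD, n = 3). Against unbound RNA 5 of 18 were higher and 2 lower. The receptor list includes Drd2, whose regulatory region drives the tag.

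G protein genes did not move as a block. Of the 7 G alpha genes 0 were higher and 2 lower than input, Gnai1 at -1.47 ± 0.057 (SD, n = 3) and Gnai2 at -1.18 ± 0.15 (SD, n = 3), and 0 were called against unbound RNA. Of 14 G beta and gamma genes compared with input 2 were higher and 6 lower, and of 13 compared with unbound RNA 4 were higher and 4 lower. With library size alone 0 were higher in either comparison. The striatal gamma subunit gene Gng7, whose product pairs with the stimulatory alpha subunit in MSNs, was at 1.39 ± 0.18 (SD, n = 3) to input and 1.56 ± 0.28 (SD, n = 5) to unbound RNA. Gnb5, a partner of RGS proteins, had 1.12 ± 0.074 (SD, n = 3) and 1.27 ± 0.082 (SD, n = 5). Gng11, Gng12 and Gng2 were the lowest, at -4.09, -3.09 and -3.01 against input. Of 21 cyclase regulators and anchors 1 was higher than input, the calmodulin gene Calm2 at 1.42 ± 0.055 (SD, n = 3), and 2 were lower. Against unbound RNA Calm2 and Rgs2 were higher and Prkcd and Camk2d lower.

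Phosphodiesterases, which break cyclic nucleotides down, were divided. Of 14 compared, 3 were higher and 4 lower than input, and 3 higher and 3 lower than unbound RNA. With library size alone, 1 was higher than input. Pde2a, Pde1b and Pde10a were the higher ones in both, with log2 ratios to input of 1.29 ± 0.12, 1.18 ± 0.097 and 1.14 ± 0.10 (SD, n = 3). Pde8a, Pde1a and Pde3b were lower in both, at -2.77, -2.51 and -1.56 against input. Of 16 cyclic AMP effector genes 0 were higher and 4 lower in either comparison, or 2 lower with a prior of 5 CPM. Among these, Rapgef4, an exchange factor gated by cyclic AMP, had -1.19 ± 0.12 (SD, n = 3) and -1.37 ± 0.099 (SD, n = 5). Among other nucleotidyl cyclases 5 of 12 were compared. The soluble guanylyl cyclase subunit genes Gucy1a3 and Gucy1b3 were higher than input, at 1.43 ± 0.32 and 1.20 ± 0.087 (SD, n = 3), and than unbound RNA, at 1.31 ± 0.15 and 1.55 ± 0.25 (SD, n = 5). With library size alone 0 genes of this list were higher than input and 1 was higher than unbound RNA. Gucy2e was lower, at -2.61 and -2.69. After cocaine 0 members of any of the 7 lists passed edgeR's test, and the list medians lay between -0.037 and 0.12 beside 0.0063 over all genes.

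Genes with the most similar profile over the 10 libraries were sought among the 9970 genes averaging 5 CPM or more, by the root mean square distance of centred log2(CPM + 1). The libraries share the IP and reference split, so such likeness is a description. Nearest to Adcy5 were Lrrtm1 at 0.096, St8sia3 at 0.096 and Creld1 at 0.11 log2 units. Nearest to Adcy9 were Cacna1a at 0.063, Mtdh at 0.077 and Msmo1 at 0.077, and nearest to Adcy1 were Vkorc1l1, Phtf2 and Mafg at 0.11 to 0.12. Adcy3 lay closest to Nomo1, Flrt3 and Dgat2, and Adcy2 to Cd2ap, Rock1 and Synm. Between isoforms, Adcy3 and Adcy5 were the most alike at 0.27, with Adcy5 and Adcy9 at 0.28, and Adcy2 and Adcy3 the least alike at 1.26.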

How the data were processed

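The authors deposited unnormalized read counts by gene symbol, in 1 file for each library. STAR 2.0.0e, HTSeq and mm10 are named per the submitters' processing notes; the annotation and the strand setting were not given in the sources used here. HTSeq's special counters stayed out of library sizes; reads in no feature were 12.9% to 14.4% of gene, no-feature and ambiguous reads in IP libraries, 25.5% in the input and 27.4% in unbound RNA.

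Levels and IP ratios are CPM scaled by TMM over all 10 libraries, with 1 CPM added before log2; genes averaging 1 CPM or more were compared, and called when every IP library passed 2-fold. Fold changes on this scale understate changes of scarce genes. Cocaine was tested against saline on raw counts with edgeR 4.0.16 (limma 3.58.1, R 4.3.3): quasi-likelihood test, two-sided, TMM, filterByExpr, treatment only, Benjamini-Hochberg adjustment over all genes; the common biological coefficient of variation was 0.20. Intervals are 95%. DESeq2 1.42.0, limma-voom, other scalings, filters and priors, lane, and leaving out each library were alternatives. The fit and the ratios were run on simulated counts drawn without lanes or shared library numbers. That checks the code, and does not cover the structure of these libraries.

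Shared numbers 1, 2 and 4 were taken to pair saline and cocaine IP libraries: deviations from group means correlated at 0.706, 0.619 and 0.314 over 9618 genes averaging 5 CPM or more (0.500, 0.337 and 0.0986 over all 13800). What a number marks is not in the labels. Every replicate pair differed by more than counting error (chi-square over its degrees of freedom at least 20.2).

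Lengths and positions are from GENCODE M21 (GRCm38, the assembly of mm10), which may differ from the authors' annotation. In the lists, 3 symbols matched by an older name. All members are named; of each list, up to 3 called genes per direction farthest from 0, and for likeness the 3 nearest genes; not every listed gene is reported here. Members and lists were chosen with earlier results of these data known.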

Additional observations from a re-analysis of the deposited data

Results flagged for a closer look

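Among the 5 cocaine IP libraries, cocaine IP 1 lay far from the others in 2 of 18 sets of values examined by Dixon's test, of which chance flags about 1 in 20. Its Adcy2 level was 6.46 CPM, against 4.16 to 4.75 CPM in the other 4 libraries. Its log2 ratio of Adcy9 to unbound RNA was -0.37, against 0.51 to 0.85 in the others. The Adcy2 ratio and the Adcy9 level of that library were not flagged. A gene's level and its ratio rest on the same reads, so the sets are not independent. Cocaine IP 1 also had the lowest summed indirect-pathway markers (7534 CPM) and the highest summed oligodendrocyte markers (496 CPM) of the cocaine libraries. Its summed astrocyte markers were the lowest of them (398 CPM, against 501 to 560 CPM). The part of these markers in both values was not tested.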

How the results depend on the processing

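Cocaine against saline called 0 genes with every alternative fit run. Signs of members turned as follows. With lane as a covariate the differences were -0.19 for Adcy1, -0.15 for Adcy3, -0.33 for Adcy5, -0.090 for Adcy8 and -0.45 for Adcy9. Within lane 6, the only lane with both treatments and thus the same contrast, they were -0.20, -0.16, -0.33, -0.10 and -0.45. With lane as a covariate and without cocaine IP 1, chosen after seeing the data, only cocaine IP 2 and saline IP 4 inform the comparison. The differences were then -0.019 for Adcy1, -0.048 for Adcy2 and -0.076 for Adcy9, and positive for Adcy3 and Adcy5. Without the 3 cocaine libraries of lane 4 they were -0.032 for Adcy1, -0.073 for Adcy3, -0.29 for Adcy5 and -0.20 for Adcy9. With the replicate block on numbers 1, 2 and 4 they were -0.025 for Adcy1, -0.26 for Adcy5 and -0.097 for Adcy9, and with the same 6 libraries unpaired -0.044, -0.23 and -0.085. The block changed no call, and unadjusted p under 0.05 was reached by 903 genes with it and 141 without it. The smallest adjusted p of any gene in edgeR's quasi-likelihood test was 0.0599 with the block and 0.9999972 without it. Adcy5 was -0.0044 with DESeq2, -0.0023 with limma-voom, -0.0046 with RLE factors, -0.0091 with library size alone, -0.0081 without a low-count filter and -0.0031 without both libraries numbered 1, an alternative chosen after seeing the data. Leaving out 1 library moved Adcy1 from -0.044 to 0.26, Adcy2 from -0.059 to 0.29, Adcy3 from -0.093 to 0.33, Adcy5 from -0.14 to 0.13, Adcy8 from -0.15 to 1.49 and Adcy9 from -0.093 to 0.27. It moved the Adcy1 ratio to input from -0.33 to 0.0056, and the Adcy9 ratio to input was -0.053 with library size alone. The causes were not tested.

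Genes higher than input numbered 187, or 70 with library size alone, 107 with a prior of 5 CPM and 216 to 338 without 1 library (338 without saline IP 1). Genes lower than input numbered 1521, or 798 with that prior and 677 over genes averaging 5 CPM or more. Genes higher than unbound RNA numbered 472, or 247 with library size alone and 293 with that prior. Genes lower numbered 1247, or 769 with that prior, 567 over genes averaging 5 CPM or more and 1913 without a filter. With all gene reads divided by coding length, the shares of Adcy9, Adcy1 and Adcy5 in cocaine IP were 14.6%, 25.001% and 57.1%. Those of Adcy9 and Adcy1 in saline IP were 13.8% and 23.0%. Of 280 counts of pathway genes under alternatives, 27 differed from the main count by over 1.5 times. Adcy8 has no value in the block fit, the same 6 libraries unpaired and the lane fit without cocaine IP 1, having too few reads. It also has none without cocaine IP 1 or without cocaine IP 5, so its range over left-out libraries rests on 6 fits. Adcy6 has no ratio among genes averaging 5 CPM or more. Limits are the single input and unbound libraries, lanes tied to fraction and treatment, the libraries numbered 1 and the few reads of Adcy4, Adcy7 and Adcy8.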
